A study of Mus musculus with 24 samples.

Results

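The genes described are 9 genes of oligodendrocyte precursors and of the lineage they give rise to, namely Cspg4, Vcan, Ptprz1, Lhfpl3, Gpr17, Olig1, Olig2, Sox10 and Bcas1. They were taken by symbol from a list of precursor and lineage genes. All 9 were found among the 23240 genes of the deposited table, and all 9 were among the 15225 genes that were tested, which had a normalized count of at least 10 in at least 4 libraries. The 24 libraries hold hippocampal RNA of wild-type male C57BL/6 mice, 4 to 8 months old, sequenced after poly(A) selection. Stressed mice on a diet with the CSF1 receptor inhibitor named PLX5562 in the labels (the PLX diet) received either electroconvulsive therapy (ECT, 4 libraries) or sham treatment (5 libraries). Stressed mice on a control diet without the inhibitor received ECT (6 libraries) or sham treatment (5 libraries), and nonstressed mice on the control diet formed the last group (4 libraries). The diets started 3 weeks before a 5-week schedule of unpredictable stressors, and ECT, a seizure induced by a brief current through ear clips, or sham treatment followed for 2.5 weeks at 3 sessions a week. Separate mice are not stated in the labels, so p-values here measure the spread between libraries, which may in part be technical.

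Oligodendrocyte precursors are the dividing glia of the adult brain that carry NG2 proteoglycan and the PDGF receptor alpha on their surface. They differentiate, through a brief committed stage, into the oligodendrocytes that wrap axons in myelin. The transcription factors Olig2, Olig1 and Sox10 act in precursors and remain on in mature cells, whereas surface and matrix genes such as Cspg4 and Vcan are switched off as cells mature, Gpr17 marks the committed stage and Bcas1 the cells that begin to make myelin. Precursors do not depend on the CSF1 receptor as microglia do, but the inhibitors of this family are known to act on related receptor kinases to differing degrees, and the PDGF receptor alpha is one of these relatives. Whether the PLX diet spared the precursor genes is therefore a question the design can address.

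Promoters from RefSeq (GRCm38.p6, from 250 bases before to 50 after the start of the gene) matched 5 of the 9 genes, Cspg4, Olig2, Vcan, Lhfpl3 and Ptprz1. Those of Olig2, Ptprz1 and Lhfpl3 are printed because these genes stood for the 3 ways in which the members varied between libraries, described further on: with the myelin genes, without a detected relation to them, and with genes of the thalamus. The capitals mark matches to an E-box (CANNTG), the site type bound by OLIG proteins and other basic helix-loop-helix factors, and to a SOX motif (ACAANG), searched on both strands. The windows are chr16:91225300-91225599 for Olig2, chr6:22875252-22875551 for Ptprz1 and chr5:22745804-22746103 for Lhfpl3, all on the plus strand.
Olig2: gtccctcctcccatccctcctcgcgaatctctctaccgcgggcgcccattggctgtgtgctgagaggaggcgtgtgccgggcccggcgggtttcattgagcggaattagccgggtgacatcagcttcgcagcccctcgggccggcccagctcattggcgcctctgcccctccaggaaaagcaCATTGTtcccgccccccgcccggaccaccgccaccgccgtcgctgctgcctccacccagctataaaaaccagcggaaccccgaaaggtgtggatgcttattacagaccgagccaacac
Ptprz1: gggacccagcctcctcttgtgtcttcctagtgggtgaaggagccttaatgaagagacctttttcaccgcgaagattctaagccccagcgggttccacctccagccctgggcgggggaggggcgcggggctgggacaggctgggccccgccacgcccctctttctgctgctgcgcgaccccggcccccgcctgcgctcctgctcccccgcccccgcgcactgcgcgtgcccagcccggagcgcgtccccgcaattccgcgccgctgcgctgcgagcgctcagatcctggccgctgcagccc
Lhfpl3: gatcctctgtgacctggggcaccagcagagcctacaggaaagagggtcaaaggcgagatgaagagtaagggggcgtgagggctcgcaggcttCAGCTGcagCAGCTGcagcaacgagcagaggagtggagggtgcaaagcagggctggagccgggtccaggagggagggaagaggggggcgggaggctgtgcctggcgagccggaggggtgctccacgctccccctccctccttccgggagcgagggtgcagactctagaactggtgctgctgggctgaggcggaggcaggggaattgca
The Olig2 window held 1 SOX match, on the opposite strand, starting 68 bases before the start that the RefSeq table uses, and no E-box. That start lies 93 bases inside Olig2 as the gene annotation below places it, so the match falls within the annotated gene. For Ptprz1 the starts of both sources are the same, and for Lhfpl3 they differ by 5 bases. The Ptprz1 window held neither motif, and the Lhfpl3 window held 2 E-boxes, which begin 158 and 149 bases before the RefSeq start. Among the windows not printed, that of Vcan had 1 E-box and that of Cspg4 had neither motif. An E-box stood in 72.1% and a SOX match in 41.6% of the 27025 promoters of the same length, so a match describes the sequence and is not evidence of binding.

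Per kilobase of exon the members spanned a wide range of levels. The median normalized count per kilobase over the 24 libraries was 1366 for Olig1, a basic helix-loop-helix factor of the lineage (chr16:91269772-91271933, GRCm38), and 1007 for Bcas1, a protein of early myelinating cells (chr2:170346991-170427845). Sox10, the SOX factor that drives myelin genes (chr15:79154908-79165240), stood at 470.5 per kilobase, and Olig2, the factor that specifies the lineage (chr16:91225457-91228677), at 329. Ptprz1, a receptor-type phosphatase of precursors and astrocytes (chr6:22875502-23052916), followed at 220.3, and Gpr17, a G protein-coupled receptor of the committed stage (chr18:31942997-31949636), at 122. Lhfpl3, a tetraspan membrane protein enriched in precursors (chr5:22746059-23275597), had 84.2 per kilobase. Cspg4, which encodes the NG2 proteoglycan (chr9:56865033-56899870), and Vcan, the matrix proteoglycan versican (chr13:89655312-89742509), were the lowest members, at 26.1 and 25.7 per kilobase. The 4 highest members were the transcription factors and Bcas1. Exons of Gpr17 overlap those of Lims2 on the opposite strand, and exons of Lhfpl3, Bcas1 and Olig1 overlap noncoding genes. Whether the counting used strand is unknown here, so reads of such pairs could not be told apart. Lims2 itself was listed at 156 to 278 normalized counts, and the noncoding partners of Lhfpl3 and Bcas1 that the table lists had at most 13.7.

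Libraries held 15.0 M to 20.1 M reads, and no member had fewer than 195 reads in any library, which puts its counting error at no more than 7.16% of the value. Markers of neighbouring tissue, and also the myelin gene Mbp, varied widely between libraries, also within a group. Over all 24 libraries Ttr, the transthyretin of the choroid plexus, ran from 904 to 78579 normalized counts. Tcf7l2, a factor of the thalamus that was also among the 12 further lineage factors described below, ran from 92.9 to 1259. The myelin gene Mbp ran from 41522 to 111911. Within the control-diet ECT group alone Ttr ran from 904 to 31293, Tcf7l2 from 109 to 1259 and Mbp from 52501 to 103116. Library 17, a sham library of the PLX diet, stood apart in Rn45s, a ribosomal RNA gene, which took 2.90% of its reads and 0.598% to 1.005% of the reads of every other library. The markers of hippocampal neurons Prox1 and Fibcd1 were present in all 24 libraries, at 725 and 1171 normalized counts or more.

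None of the 9 members passed the test on the PLX diet, while microglial genes fell to a small fraction of their control level. In sham mice 0 of 9 members were called (limma adjusted p below 0.05; edgeR and DESeq2 also gave 0), against 1.86% of all tested genes, and 0 of the 9 had an unadjusted p below 0.05, against 9.48% of all genes. In ECT mice 0 of 9 were called, with 0 by edgeR and DESeq2 as well, against 2.30% of all genes, and 1 of 9 had an unadjusted p below 0.05, against 11.4% of all genes. In both treatments combined 0 of 9 were called by limma, edgeR or DESeq2, against 3.05% of all genes, and 0 had an unadjusted p below 0.05, against 12.5% of all genes. Over all genes edgeR called 1.85% in sham mice, 2.25% in ECT mice and 3.04% in both combined, and DESeq2 called 2.10%, 2.65% and 3.66% in the same order. The median log2 fold change of the members was -0.06 in sham mice, -0.10 in ECT mice and -0.12 in both combined, where the median of all tested genes was 0.00. Of the members, 7 of 9 were on the lower side in sham mice, 9 of 9 in ECT mice and 8 of 9 in both combined, where 49.6%, 49.0% and 47.6% of all genes were. Several members varied together between libraries, as described further on, so such counts, here and below, are not counts of independent genes. With the mean of a list of myelin genes as a covariate, Cspg4, Olig2 and Vcan were on the higher side in sham mice. Olig1, Sox10, Lhfpl3 and Bcas1 stayed on the lower side in that fit.

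For scale, P2ry12, a purinergic receptor of resting microglia, averaged 89.6 ± 21.2 normalized counts in PLX sham mice (SD, n = 5) and 645 ± 56.2 in control-diet sham mice (n = 5). In both treatments combined it stood at 14.4% of the control-diet level (95% interval 12.5% to 16.5%), and Csf1r, the receptor that the inhibitor blocks, at 15.3% (13.1% to 17.9%). The microglial list had 12 of 12 genes called lower in each of the diet comparisons. Among those with the smallest adjusted p, Trem2, a lipid-sensing receptor, stood at 15.5% of control in sham mice, and Gpr34, a lysophospholipid receptor, and Fcrls at 9.63% and 14.6% in ECT mice. The 95% intervals of the 9 members in both treatments combined all lay between 71.9% and 114% of the control-diet level, so a fall of a microglial size lay outside every one of them, whereas small changes did not. Leaving out library 17, or any other single library, left 0 of 9 members called in every diet comparison. A bulk measurement cannot tell fewer cells of a type from less RNA per cell.

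**Figure D1:**
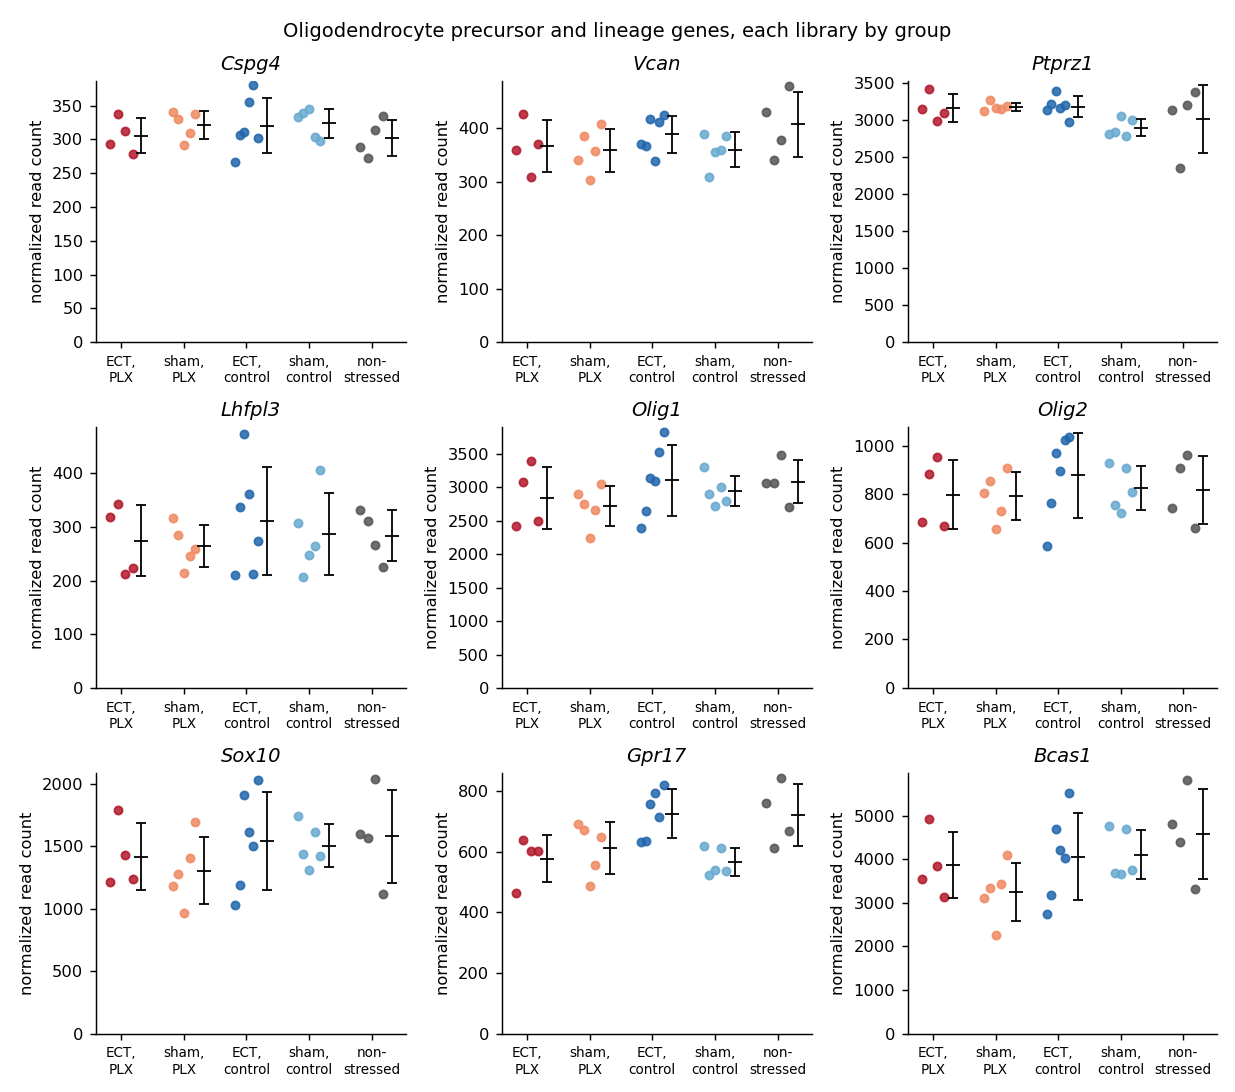
Normalized read count (y axis, from 0) of the 9 members in each of the 24 libraries, by group (x axis). Points are libraries and black bars are the mean ± SD. The PLX groups overlap their control-diet groups for all members except Ptprz1 in sham mice, where the PLX libraries begin at 3122 and the control-diet libraries end at 3054.

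Among the surface and matrix genes of precursors, Cspg4 had 341, 330.1, 291, 309 and 337 normalized counts in PLX sham libraries, against 333, 339, 345, 304 and 298 in control-diet sham libraries. In ECT mice it had 293, 337, 313 and 278 on the PLX diet, against 266 at the lowest, 309 at the median and 381 at the highest on the control diet. Both pairs of groups overlapped almost fully, and the level in PLX mice was 99.4% of the control level in sham mice (95% interval 88.3% to 112%; limma adjusted p = 0.988) and 95.8% in ECT mice (84.9% to 108%; adjusted p = 0.846). Vcan averaged 359 ± 40.3 in PLX sham mice and 360.0 ± 32.4 in control-diet sham mice (SD, n = 5 each), or 99.6% of the control level (86.6% to 115%; adjusted p = 0.994). In ECT mice Vcan averaged 367 ± 48.3 with PLX (n = 4) and 389 ± 34.7 without it (n = 6; adjusted p = 0.818). For both proteoglycan genes the groups differed by less than the spread between their libraries. Pdgfra, the growth factor receptor that defines precursors and is not one of the 9, averaged 719 ± 51.5 in PLX sham mice and 696 ± 29.2 in control-diet sham mice (log2 fold change 0.05, SE 0.07, limma adjusted p = 0.898). In ECT mice it averaged 655 ± 59.9 with PLX and 691 ± 52.8 without it (log2 fold change -0.08, SE 0.07, limma adjusted p = 0.738).

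In sham mice the libraries separated by diet for Ptprz1. It had 3122, 3270.5, 3159, 3148 and 3193 normalized counts in PLX sham libraries, against 2815, 2832, 3054, 2789.7 and 2995 in control-diet sham libraries. All 5 PLX libraries lay above all 5 control-diet libraries, as was the case in one direction or the other for 3.35% of all tested genes. The size was small (log2 fold change 0.13, SE 0.07, limma adjusted p = 0.533), and the difference did not pass the test. In ECT mice, where Ptprz1 had 3151, 3419.9, 2982 and 3094 on the PLX diet, against 2970.4 at the lowest, 3188 at the median and 3396 at the highest on the control diet, the groups overlapped (log2 fold change -0.01, SE 0.07, limma adjusted p = 0.980). The control-diet sham group had the lowest mean of the 5 groups, 2897 ± 119 (SD, n = 5). The nonstressed group had the widest spread, 3014 ± 457 (n = 4), with 1 library at 2348.

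Lhfpl3 scattered widely within groups. It had 317, 284, 214, 246 and 259.9 normalized counts in PLX sham libraries, against 307, 207, 248, 264 and 407 in control-diet sham libraries. In ECT mice it had 318, 344, 212 and 224 on the PLX diet, against 210.3 at the lowest, 306 at the median and 473 at the highest on the control diet. The control-diet groups enclosed the PLX groups at both ends, and the intervals, 69.5% to 127% of the control level in sham mice and 66.2% to 122% in ECT mice, were the widest of the surface genes (adjusted p = 0.936 and 0.853, limma).

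Gpr17 lay on opposite sides of its control level in the sham and ECT mice, without passing the test in either. In sham mice it had 690.4, 669.7, 488, 555 and 649 normalized counts on the PLX diet, against 618, 522, 538, 611 and 537 on the control diet (log2 fold change 0.10, SE 0.11, limma adjusted p = 0.827). Of the 5 PLX sham libraries, 3 lay above all control-diet sham libraries and 1 lay below them all. In ECT mice it had 463, 638, 601 and 602 on the PLX diet, against 631 at the lowest, 736 at the median and 819 at the highest on the control diet, with 1 PLX library inside the range of the control-diet libraries and 3 below it. That difference was the largest of any member in ECT mice (log2 fold change -0.33, SE 0.11, limma adjusted p = 0.134; unadjusted p = 0.00518), at 79.3% of the control level (67.9% to 92.6%). The difference between the diet effects, ECT minus sham, was -0.44 on the log2 scale (SE 0.15, limma adjusted p = 0.644, unadjusted p = 0.00832). Over all 9 members 0 interactions were called by limma, edgeR or DESeq2, with 1 of 9 at an unadjusted p below 0.05, against 0% of all genes called and 6.85% at an unadjusted p below 0.05.

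The lineage transcription factors stood slightly lower on the PLX diet without a call. Olig1 averaged 2722 ± 305 in PLX sham mice and 2946 ± 228 in control-diet sham mice (SD, n = 5 each; 92.1% of control, 78.1% to 109%; limma adjusted p = 0.812). Its ECT groups averaged 2845 ± 464 with PLX (n = 4) and 3104 ± 534 without it (n = 6; adjusted p = 0.770). Each of these differences was smaller than 1 SD of the groups compared. Olig2, next to Olig1 on chromosome 16, had 806, 856, 656, 732 and 907 normalized counts in PLX sham libraries, against 930.4, 754, 724, 908 and 807 in control-diet sham libraries. In ECT mice Olig2 had 685, 883, 954 and 669.6 on the PLX diet, against 584 at the lowest, 933 at the median and 1035 at the highest on the control diet. The PLX values of Olig2 fell within or near the control-diet range in both treatments (log2 fold change -0.06, SE 0.15, limma adjusted p = 0.940 in sham mice; log2 fold change -0.13, SE 0.15, limma adjusted p = 0.821 in ECT mice). The ratio of Olig1 to Olig2 was steady, at 3.57 ± 0.107 in ECT PLX, 3.45 ± 0.175 in sham PLX, 3.56 ± 0.297 in ECT control, 3.59 ± 0.216 in sham control and 3.81 ± 0.366 in nonstressed mice (SD, n = 4, 5, 6, 5 and 4). Sox10 had 1181, 1276, 968, 1403 and 1691 in PLX sham libraries, against 1741, 1441, 1310.1, 1615 and 1420.1 in control-diet sham libraries. In 3 of the 5 PLX sham libraries Sox10 lay below all control-diet sham libraries, but the estimate was imprecise (log2 fold change -0.22, SE 0.18, limma adjusted p = 0.763; 95% interval 65.7% to 112% of control). In ECT mice Sox10 averaged 1416 ± 266 with PLX and 1544 ± 392 without it (adjusted p = 0.896).

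Bcas1 had the largest difference of any member in sham mice. It had 3117, 3346, 2267, 3429 and 4099.8 normalized counts in PLX sham libraries, against 4751, 3673, 3658, 4698 and 3748 in control-diet sham libraries. Of the PLX sham libraries, 4 lay below every control-diet sham library and 1 lay within their range. The level was 78.4% of control (95% interval 60.1% to 102%; log2 fold change -0.35, SE 0.18, limma adjusted p = 0.581, unadjusted p = 0.0706). The difference did not pass the test, and its interval reached just past the control level. In ECT mice Bcas1 had 3554, 4928, 3853 and 3143 on the PLX diet, against 2744 at the lowest, 4116 at the median and 5517 at the highest on the control diet, and the PLX libraries lay inside the control-diet range (log2 fold change -0.05, SE 0.19, limma adjusted p = 0.954). Mbp, the myelin basic protein gene, stood at 79.3% of control in sham mice and 94.1% in ECT mice (adjusted p = 0.636 and 0.918).

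**Figure D2:**
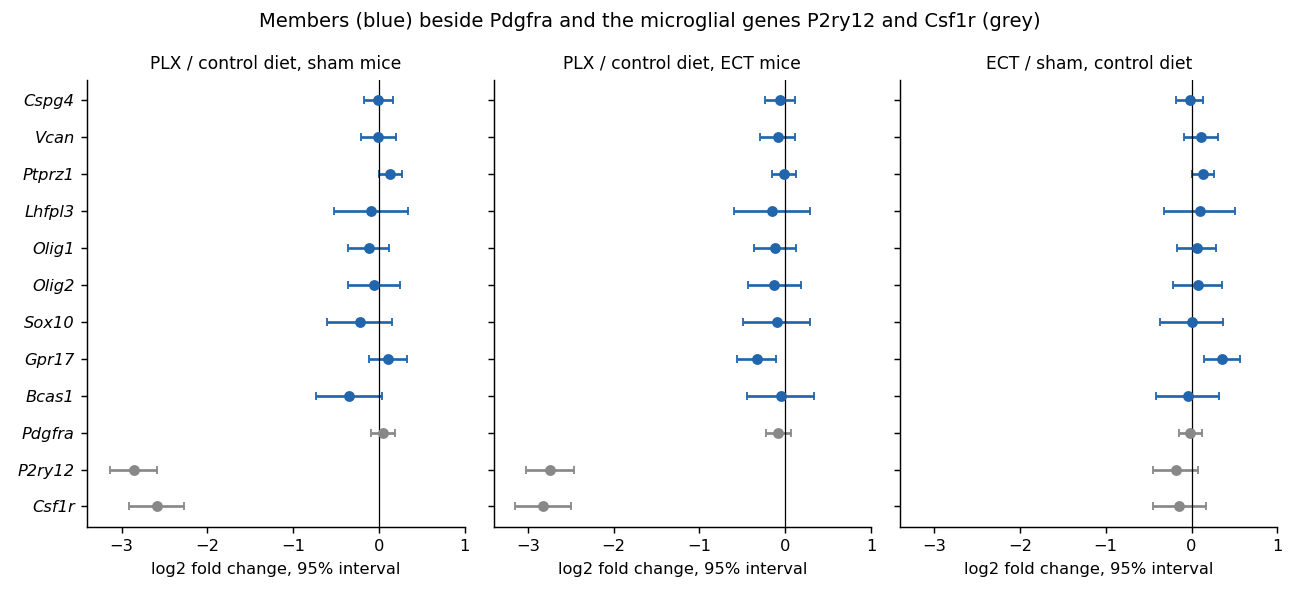
Log2 fold change with its 95% interval (x axis) of the 9 members (blue), Pdgfra and the microglial genes P2ry12 and Csf1r (grey) for 3 comparisons from the limma fit. In both diet comparisons the members lie between -0.35 and 0.13, whereas P2ry12 and Csf1r lie at -2.86 and -2.59 in sham mice and at -2.74 and -2.83 in ECT mice.

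Genes of some lists of neighbouring tissue lay mostly on 1 side between the diet groups, while the means of these lists overlapped. In sham mice the choroid plexus list had 10 of 10 genes on the higher side on the PLX diet (median log2 fold change 1.52, none called), whereas in ECT mice 9 of 10 were on the lower side (median -0.20, none called). In sham mice its mean log2 level was 5.45 to 9.26 in PLX sham libraries, against 4.95 to 9.14 in control-diet sham libraries, and it was 5.69 to 9.19 in PLX ECT libraries, against 5.16 to 8.80 in control-diet ECT libraries. The thalamus list had 9 of 10 genes on the lower side in sham mice (median -0.30) and 10 of 10 in ECT mice (median -0.42), again with none called. Its mean was 7.23 to 8.65 in PLX sham libraries, against 7.17 to 9.45 in control-diet sham libraries, and 7.13 to 8.56 in PLX ECT libraries, against 6.89 to 9.52 in control-diet ECT libraries. With the means of both lists as covariates 0 of the 9 members were called in any diet comparison, against 1.68% of all genes in sham mice, 2.28% in ECT mice and 2.67% in both combined. Markers of pericytes and smooth muscle, which share Cspg4, had 0 of 11 genes called in each diet comparison. Their mean was 6.18 to 6.95 in PLX sham libraries, against 6.31 to 6.58 in control-diet sham libraries. Astrocytes also make Ptprz1, and of 10 astrocyte genes 1 was called higher, Gfap, the filament protein of astrocytes, in both treatments combined (log2 fold change 0.46, SE 0.11, limma adjusted p = 0.0206). The meninges list had 10 of 10 genes on the higher side on the PLX diet in sham mice (median 0.62), in ECT mice (median 0.45) and in both combined (median 0.52). Of these 1 was called, in both combined, the matrix protein gene Ogn (log2 fold change 0.83, SE 0.20, adjusted p = 0.0197). The meninges mean was 6.78 to 8.45 in PLX sham libraries, against 6.60 to 7.32 in control-diet sham libraries, and 6.86 to 7.63 in PLX ECT libraries, against 6.32 to 7.47 in control-diet ECT libraries, and its part in the members' values was not tested. Of 8 neuron genes and 9 genes of the striatum none was called on the PLX diet. The striatum list had 7 of 9 genes on the higher side in sham mice (median 0.12). In ECT mice 8 of 9 were on the lower side (median -0.12). For the difference between the diet effects, ECT minus sham, 8 of 9 were on the lower side as well (median -0.34). The part of these genes in the members' values, Gpr17 included, was not tested.

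ECT gave no call among the members either. On the control diet 0 of 9 were called by limma, edgeR or DESeq2, against 0.00657% of all genes by limma, 0.00657% by edgeR and 0.0722% by DESeq2, and 2 of 9, Gpr17 and Ptprz1, had an unadjusted p below 0.05, against 6.88% of all genes. The median log2 fold change of the members was 0.07, with 7 of 9 on the higher side, against a median of 0.00 and 49.3% of all genes. Gpr17 had 631 at the lowest, 736 at the median and 819 at the highest in ECT mice, against 618, 522, 538, 611 and 537 in sham mice. All 6 ECT libraries lay above all 5 sham libraries, as was the case in one direction or the other for 0.841% of all genes. The level was 128% of sham (111% to 148%; log2 fold change 0.36, SE 0.10, limma adjusted p = 0.456; unadjusted p = 0.00193), and the difference did not pass the adjustment over all genes. Lims2, which overlaps Gpr17, was at -0.05 on the log2 scale (adjusted p = 0.973). In the other comparisons in which Gpr17 is described, Lims2 was at -0.08 for diet in sham mice and 0.14 for diet in ECT mice. It was at 0.18 for ECT on the PLX diet, 0.22 for the interaction and -0.19 for stressed sham against nonstressed mice. None of these was called. Genes of some tissue lists lay mostly on the higher side with ECT on the control diet, while the means of these lists overlapped between the groups. The striatum list had 9 of 9 genes on the higher side (median 0.23), the choroid plexus list 10 of 10 (median 0.47) and the thalamus list 9 of 10 (median 0.15), with none called. The striatum mean was 7.33 to 8.38 in ECT libraries, against 7.34 to 7.64 in sham libraries, and over the 24 libraries with group means removed Gpr17 had r = 0.51 with it. This was not particular to Gpr17, since r with the striatum mean was 0.60 for Bcas1, 0.55 for Sox10 and 0.57 for the myelin mean. The remaining members had r of 0.02 to 0.46 with it. The part of the striatum genes in the Gpr17 value was not tested. With the choroid plexus and thalamus covariates Gpr17 was not called, nor were any of the 9 members, against 0% of all genes. Ptprz1 averaged 3181 ± 138 in ECT mice (n = 6) and 2897 ± 119 in sham mice (n = 5), with the ranges overlapping (log2 fold change 0.13, SE 0.06, limma adjusted p = 0.695; unadjusted p = 0.0426). These ECT comparisons and the diet comparisons share the control-diet ECT and sham libraries, so they are not independent views of Gpr17 and Ptprz1.

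On the PLX diet 0 of 9 members were called between ECT and sham mice by limma, edgeR or DESeq2, against 0% of all genes, and 0 of 9 had an unadjusted p below 0.05, against 2.55% of all genes. The median log2 fold change of the members was 0.03. Gpr17 averaged 576 ± 77.0 in ECT mice (n = 4) and 610.4 ± 85.9 in sham mice (n = 5) on this diet (log2 fold change -0.08, SE 0.11, limma adjusted p = 0.999). Bcas1 had the largest estimate, 3869.7 ± 763 in ECT mice and 3252 ± 661 in sham mice (log2 fold change 0.26, SE 0.20, limma adjusted p = 0.999; 95% interval 90.1% to 158% of sham). All 19 genes of the myelin list were on the higher side in ECT mice in this comparison, with a median of 0.13 and none called. The choroid plexus list had 10 of 10 genes on the lower side (median -1.54). After adjustment for the choroid plexus and thalamus means 0 of 9 members were called here too, against 0% of all genes.

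The last comparison set stressed sham mice against nonstressed mice, and it is called stress for short elsewhere. Sham sessions are stated for the stressed mice only, so stress and sham treatment cannot be told apart in it. Between stressed sham and nonstressed mice on the control diet 0 of 9 members were called by limma, edgeR or DESeq2, against 0% of all genes by limma and edgeR and 0.00657% by DESeq2, and 1 of 9 had an unadjusted p below 0.05, against 6.50% of all genes. That gene was Gpr17, with 618, 522, 538, 611 and 537 in stressed sham libraries, against 759, 611, 841 and 666 in nonstressed libraries. The same stressed sham libraries, whose Gpr17 mean was the lowest of all groups, are also the reference for ECT on the control diet. They are the reference for diet in sham mice too, so these results for Gpr17 are not independent of each other. Of the nonstressed libraries, 3 of 4 lay above all stressed sham libraries and 1 overlapped their upper end. The level was 79.0% of nonstressed (67.2% to 92.8%; log2 fold change -0.34, SE 0.11, limma adjusted p = 0.759; unadjusted p = 0.00594). Bcas1 averaged 4106 ± 566 in stressed sham mice (n = 5) and 4579.6 ± 1034 in nonstressed mice (n = 4; adjusted p = 0.923). The median log2 fold change of the members was -0.05, with 7 of 9 on the lower side, against 50.8% of all genes. The choroid plexus list stood apart more than any member, with 10 of 10 genes on the lower side (median -1.73, none called), and its mean was 4.95 to 9.14 in stressed sham libraries, against 7.47 to 9.68 in nonstressed libraries. The myelin list had 18 of 19 genes on the lower side (median -0.20), the thalamus list 9 of 10 (median -0.41) and the neuron list 0 of 8 (median 0.08), with none called. After adjustment for the choroid plexus and thalamus means 0 of 9 members were called, against 0% of all genes. With the myelin mean as a covariate 0 of 9 were called as well, against 0% of all genes.

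In the order of group means, ECT mice on the control diet were highest for Gpr17 (725 ± 79.7), followed by nonstressed (719 ± 101), sham PLX (610.4 ± 85.9), ECT PLX (576 ± 77.0) and sham control mice (565 ± 45.6; SD throughout). For Bcas1 the order was nonstressed (4579.6 ± 1034), sham control (4106 ± 566), ECT control (4061 ± 1003), ECT PLX (3869.7 ± 763) and sham PLX mice (3252 ± 661). The highest group mean exceeded the lowest by a ratio of 1.41 for Bcas1 and 1.28 for Gpr17. For the other 7 members that ratio was 1.07 to 1.21, and for each pair of neighbours in the order the means differed by less than the larger of their SDs, which was also so for Bcas1. For Gpr17 it was so except between nonstressed and sham PLX mice. The sham PLX group had the lowest mean of the 5 groups for Olig1, Olig2, Sox10, Vcan, Lhfpl3 and Bcas1.

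The other genes of the lineage gave the same kind of counts. Of 15 further genes enriched in precursors, such as Pdgfra, C1ql1 and Neu4, none was called by limma in any of the 7 comparisons. The median log2 fold change on the PLX diet was 0.00 in sham mice and -0.12 in ECT mice. In both treatments combined the smallest adjusted p of this list was 0.206, for Neu4, a sialidase (log2 fold change -0.17, SE 0.06). C1ql1, a secreted C1q-like protein of precursors, averaged 221 ± 25.5 in PLX sham mice and 255 ± 22.6 in control-diet sham mice (n = 5 each; log2 fold change -0.21, SE 0.08, adjusted p = 0.349). Both differences were small, and neither passed. Of 12 genes of the committed stage none was called in any comparison. Bmp4, a bone morphogenetic protein made by committed cells, averaged 74.4 ± 23.0 in PLX sham mice and 48.0 ± 4.29 in control-diet sham mice (log2 fold change 0.56, SE 0.20, adjusted p = 0.275). Of 12 further lineage factors and 19 myelin genes none was called in any comparison, with medians on the PLX diet of -0.09 and -0.14 in sham mice and -0.04 and -0.01 in ECT mice. On the PLX diet 17 of the 19 myelin genes were on the lower side in sham mice, 11 in ECT mice and 16 in both combined. Of all genes 49.6%, 49.0% and 47.6% were on that side. Of the 12 lineage factors, 8 were lower in sham mice and 7 in ECT mice.

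Among signals that act on precursors, 1 of 17 tested genes was called lower on the PLX diet in sham mice and in ECT mice, and 2 of 17 in both treatments combined. Tgfb1, a cytokine made largely by microglia, averaged 51.9 ± 9.13 in PLX sham mice and 159 ± 16.4 in control-diet sham mice (SD, n = 5 each; log2 fold change -1.60, SE 0.15, limma adjusted p = 9.16e-08). In ECT mice it averaged 51.0 ± 14.4 with PLX and 141 ± 19.3 without it (log2 fold change -1.48, SE 0.16, adjusted p = 4.41e-07). Pdgfb, a PDGF chain of blood vessel cells, averaged 415 ± 69.5 in PLX sham mice and 527 ± 52.0 in control-diet sham mice, and 412 ± 28.0 in PLX ECT mice and 499 ± 64.4 in control-diet ECT mice. It fell in both treatments combined (log2 fold change -0.31, SE 0.08, adjusted p = 0.0258), but the call was lost without any one of 6 libraries (8, 9, 13, 14, 17 or 18; adjusted p up to 0.0622) and with a random effect of the title letter (adjusted p = 0.0523). Pdgfa, the chain that binds the PDGF receptor alpha of precursors, was not called in any comparison. Of 13 tested genes of the matrix and of partners of Ptprz1, none was called in any comparison.

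The members did not all vary together. After removal of the group means, Pearson's r over the 24 libraries was computed for the 36 pairs of members and for each member with the means of the myelin and thalamus lists, 54 relations in all, with p-values from 100000 permutations within groups, adjusted over the 54. Bcas1 followed the myelin list mean most closely (r = 0.98, rho = 0.97), then Sox10 (r = 0.97, rho = 0.97), Olig1 (r = 0.89, rho = 0.87) and Olig2 (r = 0.87, rho = 0.84). For these 4 genes the permutation p was 1e-05, the smallest that 100000 resamples can give (adjusted p = 5.4e-05 for r and 7.71e-05 for rho). Gpr17 followed it less tightly (r = 0.76, rho = 0.71; permutation p = 6e-05 and 0.00051, adjusted p = 0.00027 and 0.00212). Without the 2 libraries farthest from the median of the myelin mean, r was 0.97 for Bcas1, 0.96 for Sox10, 0.84 for Olig1, 0.83 for Olig2 and 0.69 for Gpr17. The slope on the log2 scale was 0.93 (SE 0.05) for Bcas1 and 0.92 (SE 0.06) for Sox10, so these genes changed nearly in proportion to myelin. It was 0.66 (SE 0.08) for Olig2, 0.53 (SE 0.06) for Olig1 and 0.42 (SE 0.08) for Gpr17.

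For the precursor surface genes the relation with myelin did not pass. Cspg4 (r = 0.38, rho = 0.29, permutation adjusted p = 0.270 and 0.393) and Vcan (r = 0.38, rho = 0.38, adjusted p = 0.213 and 0.220) had slopes of 0.16 (SE 0.09) and 0.19 (SE 0.10), and whether these differ from those of the other members was not tested. Ptprz1 had r = -0.02 and rho = -0.05 (adjusted p = 0.924 and 0.915) and a slope of -0.01 (SE 0.07), and it ranged from 2348 to 3419.9 normalized counts while Mbp ranged from 41522 to 111911. Between members, Olig1 and Olig2 (r = 0.93, rho = 0.95) and Sox10 and Bcas1 (r = 0.98, rho = 0.97) were closest (permutation p = 1e-05 each, adjusted p = 5.4e-05 for r; r = 0.91 and 0.97 without the 2 farthest libraries). Ptprz1 and Vcan had r = 0.55 and rho = 0.41 (permutation p = 0.0167 and 0.0786, adjusted p = 0.0532 and 0.220), and r fell to 0.35 without the 2 farthest libraries, so this relation rests on them.

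**Figure D3:**
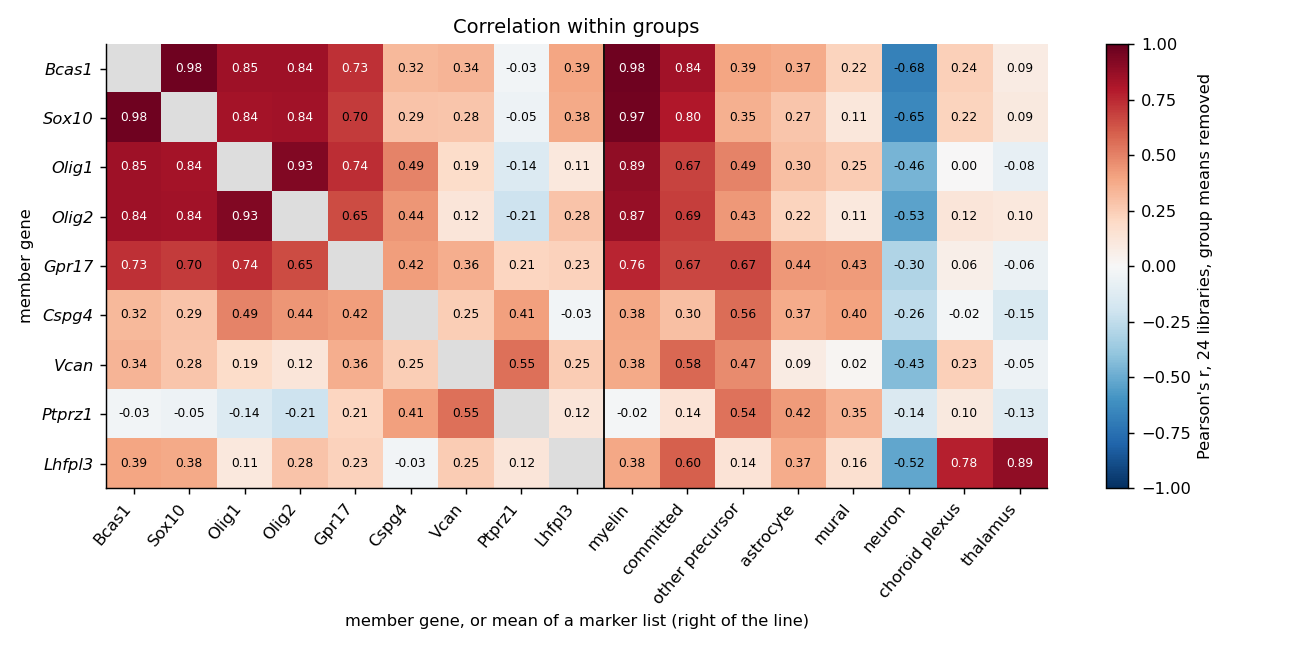
Pearson's r across 24 libraries, after removal of group means, between each member (down) and the other members or the mean of a marker list (across, lists at the right). Bcas1, Sox10, Olig1, Olig2 and Gpr17 form a block with the myelin list at 0.76 to 0.98, Ptprz1 stands at -0.02 with it, and Lhfpl3 stands at 0.89 with the thalamus list and 0.78 with the choroid plexus list.

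Lhfpl3 followed the thalamus list (r = 0.89, rho = 0.88, permutation p = 1e-05 for both, adjusted p = 5.4e-05 and 7.71e-05; r = 0.84 without the 2 farthest libraries). As a description, its r was 0.78 with the choroid plexus list, and the choroid plexus mean had r = 0.78 with the thalamus mean, so the 2 lists were not separate in these libraries. The thalamus mean was unevenly spread over the libraries. In the 9 libraries above a list mean of 7.9, a value chosen after the libraries were seen, Lhfpl3 ranged from 307 to 473 normalized counts, and in the 15 below it from 207 to 344. Within each of these sets r, without removal of group means, was 0.71 and 0.79. No other member passed with the thalamus list; their r was between -0.15 and 0.10. The depth of the libraries and the tissue taken at dissection are shared by all genes of a library.

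**Figure D4:**
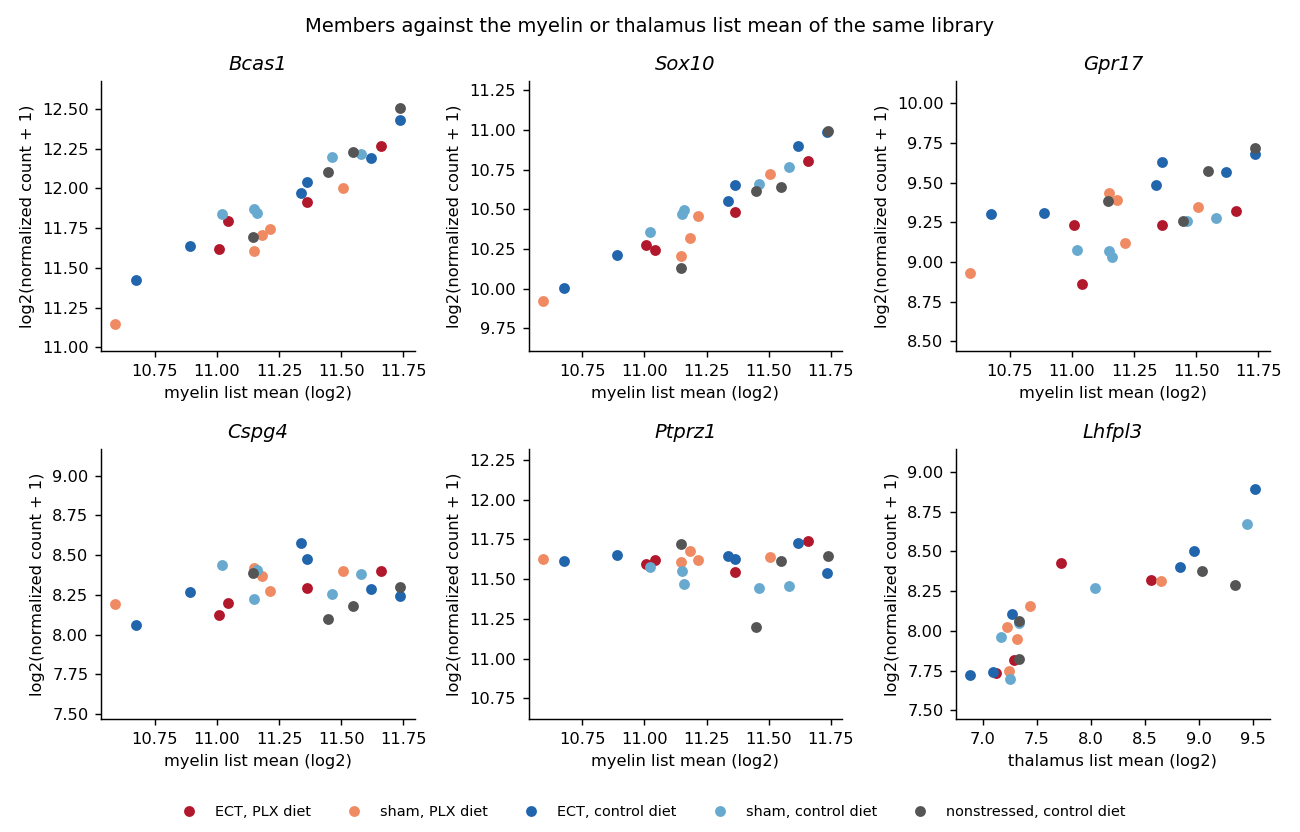
Log2(normalized count + 1) of 6 members (y axis, all panels spanning the same range) against the mean log2 level of the myelin list, or of the thalamus list for Lhfpl3 (x axis), each point a library coloured by group. Bcas1 and Sox10 rise with the myelin mean at slopes of 0.93 and 0.92, Cspg4 and Ptprz1 lie nearly flat, and Lhfpl3 rises with the thalamus mean.

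The tested genes with the nearest patterns, by Pearson's r over the 24 libraries with group means removed, differed accordingly. For Bcas1 they were Mbp (0.99), Plekhb1 (0.98) and Car2 (0.98), and for Sox10 they were Prr18 (0.98), Qdpr (0.97) and Mbp (0.97). Nearest to Olig1 were Cryab (0.92), Nkx6-2 (0.90) and Qdpr (0.90), and nearest to Olig2 were, among others, Tmem125 (0.92) and Sox2ot (0.91). Mbp, Qdpr and Cryab belong to the myelin list. The nearest genes of Gpr17 were Smco3 (0.86), St6gal1 (0.85) and Golga7 (0.82), and those of Lhfpl3 were Tmem163 (0.94), Mrvi1 (0.93) and Gpr153 (0.93). Those of Ptprz1 were Gpam (0.89), Slc36a4 (0.82) and Arhgap5 (0.76), those of Vcan were Eea1 (0.83), Scaf11 (0.81) and Daam1 (0.80), and those of Cspg4 were Ltbp1 (0.68), Abtb2 (0.67) and Lamc1 (0.67). None of the genes nearest to Ptprz1, Vcan and Cspg4 is in the myelin list.

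With the myelin list mean of each library as a covariate, 1 member was called in each diet comparison. The same fit called 1.91% of all genes in sham mice, 2.79% in ECT mice and 3.30% in both combined. In sham mice the member was Bcas1. Its log2 level minus the myelin mean was 0.46, 0.53, 0.56, 0.53 and 0.49 in PLX sham libraries, against 0.64, 0.68, 0.82, 0.74 and 0.72 in control-diet sham libraries. The groups did not overlap, and all 5 PLX libraries lay below all 5 control-diet libraries, as was the case in one direction or the other for 1.23% of all tested genes on this relative scale. With the covariate Bcas1 fell by 0.22 on the log2 scale (SE 0.05, limma adjusted p = 0.00544; edgeR adjusted p = 0.00470), and it was called in all 24 fits that left out 1 library (adjusted p at most 0.0293). In ECT mice Bcas1 minus the myelin mean was 0.75, 0.61, 0.55 and 0.61 on the PLX diet, against 0.58 to 0.75 on the control diet, and it was not called (log2 fold change -0.05, SE 0.05, adjusted p = 0.710). The difference between the diet effects, ECT minus sham, was 0.17 (SE 0.06, adjusted p = 0.513) and did not pass. In both treatments combined Bcas1 was called with the covariate (log2 fold change -0.13, SE 0.03, adjusted p = 0.0151), but not without library 14 (adjusted p = 0.0511). The myelin list itself had 0 of 19 genes called in any comparison.

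**Figure D5:**
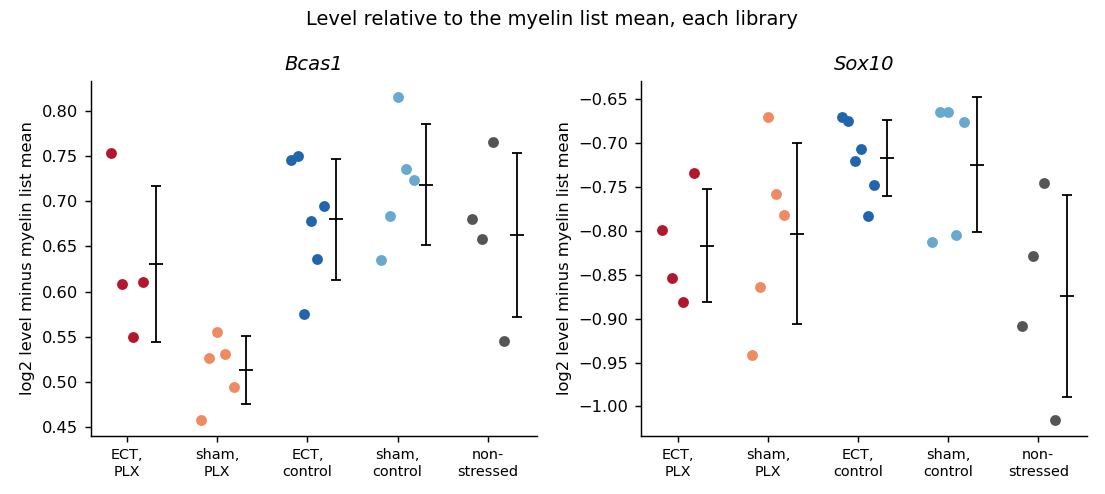
Log2 level of Bcas1 and Sox10 minus the mean log2 level of the myelin list (y axis, not starting at 0) in each library by group (x axis), with mean ± SD in black. For Bcas1 the PLX sham libraries end at 0.56 and the control-diet sham libraries begin at 0.64, whereas for Sox10 the same groups overlap.

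In ECT mice the member called with the myelin covariate was Gpr17, which fell by 0.33 on the log2 scale on the PLX diet (SE 0.07, limma adjusted p = 0.00822; edgeR adjusted p = 0.00881). It was called in 23 of 24 fits that left out 1 library and not without library 12 (adjusted p = 0.0686), which held the lowest Gpr17 value. The estimate was nearly the same without the covariate, at -0.33, but the SE was 0.11. With the covariate, the ECT comparison on the control diet put Gpr17 at 0.36 on the log2 scale (SE 0.07, adjusted p = 0.0804), and the interaction at -0.50 (SE 0.10, adjusted p = 0.388), so neither passed. The ECT comparison was called in 1 of 24 fits that left out a library (without library 15, adjusted p = 0.0478; up to 0.389 otherwise). Olig1, not called on the PLX diet in ECT mice with the covariate (log2 fold change -0.12, SE 0.06, adjusted p = 0.370), was called in 1 of 24 (without library 14, adjusted p = 0.0466). Sox10, which followed myelin as closely as Bcas1, was not called in sham mice with the covariate (log2 fold change -0.09, SE 0.05, adjusted p = 0.547). The myelin list mean is itself measured in these libraries, and whether the diet moved it was not shown, so a level relative to myelin is a different quantity from the level itself.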

How the data were processed

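Poly(A) RNA of the hippocampus was measured in 24 libraries, grouped by title into the 5 groups named above. The deposited values are a signal per gene and library that the file headers call normalized counts, and the values themselves are whole reads divided by a factor for each library. TopHat2 2.0.10, DESeq2 1.6.3, HTSeq 0.6.1p1 and cutadapt are listed in the submitters' processing notes, as are the builds mm10 and hg19, all without a role. For annotation and strand setting, nothing was given in the sources used here. Dividing each column by its smallest step gave whole reads for 100% of values (tolerance 0.001 reads) and size factors of 0.917 to 1.21. Such read counts carry no molecular identifiers, so depth figures cover counting error only.

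The test was limma 3.58.1 (R 4.3.3) (trend = TRUE, robust = TRUE) on log2(value + 1), with 5 group means, 7 comparisons and Benjamini-Hochberg adjustment over 15225 genes. A gene was called at an adjusted p below 0.05. Fold changes are on this scale, which understates low genes. The fit was tested on simulated data. Alternatives were edgeR 4.0.16 with TMM and DESeq2 1.42.0 on the recovered reads, a fit of the compared groups alone, a pseudocount of 8, no low-value filter, a random effect of the title letter, covariates from marker lists, and each library left out. The fits with the myelin covariate that left out a library or used edgeR, all alternatives for Tgfb1, Pdgfb and Pdgfra, and the division of the libraries at a thalamus mean of 7.9 were chosen after seeing the data. A list mean is the mean of log2(value + 1) over its genes. Correlations used scipy 1.17.1 and numpy 2.4.6. What the letter in the titles stands for is unknown here, and values within a letter had a consensus correlation of 0.192. No letter was shared between groups, and the 4 libraries of the PLX ECT group carried only the letters G and H. The fits with the myelin covariate were not repeated with the letter as a random effect.

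The members and all gene lists were chosen with earlier results of these data known. The named genes are the 9 members, 6 fixed checks (Pdgfra, Mbp, P2ry12, Csf1r, Ttr and Tcf7l2), up to 4 called genes of each list, and the 3 genes most correlated with each member; a few of these are not reported here. Prox1, Fibcd1, Lims2, Rn45s, Neu4, C1ql1, Bmp4 and Pdgfa were named in addition after their values were seen. Coordinates and exon lengths come from the GRCm38 annotation, matched by symbol.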

Additional observations from a re-analysis of the deposited data

How the results depend on the processing

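Over the 9 members and 7 comparisons, 0 members were called under any of the 8 alternatives except the myelin list mean as a covariate, where 1 was called in each of the 3 diet comparisons, and 0 were called without any single library. No paired analysis was possible because the library numbers of the groups are not shared. The number of all genes called in ECT mice by diet was 350, and 229 when only the compared groups were fitted. Between ECT and sham mice on the control diet it was 1, against 11 by DESeq2 and 0 when only the compared groups were fitted, with a random effect of the title letter, and with the tissue (choroid plexus and thalamus) means as covariates. Between stressed sham and nonstressed mice DESeq2 called 1 gene. Without single libraries the number of genes called was 227 to 387 for diet in ECT mice (227 without library 15), 0 to 4 for ECT on the control diet, 0 to 2 for ECT on the PLX diet and 0 to 1 for stress. The cause was not tested.

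The log2 fold change changed sign in 23 of 504 cases, all of them uncalled. With the myelin mean as a covariate these were, for diet in sham mice, Cspg4 (0.014), Vcan (0.022) and Olig2 (0.034). For ECT on the PLX diet they were Lhfpl3 (-0.023), Olig1 (-0.017), Olig2 (-0.088) and Sox10 (-0.0018), for the interaction Sox10 (-0.0088), and for stress Lhfpl3 (0.074), Olig1 (0.041), Sox10 (0.13) and Bcas1 (0.042). With the tissue means they were Sox10 (-0.010) for ECT on the control diet, Ptprz1 (0.042) for ECT on the PLX diet, Vcan (0.029), Lhfpl3 (0.066) and Olig1 (0.025) for the interaction, and Lhfpl3 (0.19) and Sox10 (0.057) for stress. With the title letter they were Sox10 (-0.0052) for ECT on the control diet and Olig2 (-0.0031) for ECT on the PLX diet. For stress, Lhfpl3 was at 0.016 by edgeR and 0.015 by DESeq2.

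Without single libraries the sign changed in 76 of 1512 cases. For diet the range was, in sham mice, -0.038 to 0.026 for Cspg4, -0.060 to 0.053 for Vcan, -0.20 to 0.044 for Lhfpl3 and -0.11 to 0.0032 for Olig2, and in ECT mice -0.048 to 0.018 for Ptprz1 and -0.17 to 0.044 for Bcas1. For ECT on the control diet it was -0.075 to 0.029 for Cspg4, -0.036 to 0.23 for Lhfpl3, -0.0032 to 0.13 for Olig1, -0.084 to 0.11 for Sox10 and -0.14 to 0.062 for Bcas1. For ECT on the PLX diet it was -0.048 to 0.11 for Vcan, -0.048 to 0.018 for Ptprz1, -0.083 to 0.15 for Lhfpl3, -0.16 to 0.019 for Gpr17, -0.031 to 0.13 for Olig1 and -0.087 to 0.083 for Olig2. For the interaction it was -0.20 to 0.071 for Lhfpl3, -0.092 to 0.069 for Olig1 and -0.18 to 0.012 for Olig2. For stress it was -0.16 to 0.016 for Ptprz1, -0.14 to 0.10 for Lhfpl3, -0.076 to 0.10 for Olig2 and -0.20 to 0.087 for Sox10. The direction of these members is not settled by these libraries. Counting error was at most 7.16% of a value.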
